A study of Homo sapiens with 6 samples.

Results

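The regions described here are 3685 narrow PLAG1-S peaks that lay deep inside protein-coding genes and had no USF2 peak beside them. They were chosen by the peak calls themselves. Each is a clone 4 PLAG1-S peak narrower than 700 bp that overlapped a clone 5 PLAG1-S peak by at least 1 bp, had no USF2 peak of either clone within 100 bp of its edges, lay more than 3 kb from both ends of every RefSeq gene of any type, and had its summit inside a protein-coding gene on chromosomes 1 to 22 or X. They are 17.3% of the 21330 reproducible PLAG1-S peaks on these chromosomes and part of the 81170 peaks in the 4 deposited lists. The position, the narrow width, the presence in both clones and the lack of USF2 are therefore what the selection used and not findings, and the fold enrichments below come from the same peak calls.

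PLAG1 is a C2H2 zinc finger transcription factor that recognises a G-rich bipartite sequence, and it is best known as a proto-oncogene in salivary gland adenomas. PLAG1-S is a short isoform of it. USF2 is a basic helix-loop-helix leucine zipper factor that binds E-boxes, mostly near the starts of genes. Binding inside a gene body, far from its ends, can mark an enhancer, an alternative start or chromatin that is open for another reason, and a peak call alone does not tell these apart.

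The chromatin came from clones #4 and #5 of K562, a human line of chronic myelogenous leukemia, and both clones carried USF2 and FLAG-PLAG1-S as overexpressed proteins. Each clone gave a PLAG1-S library through an anti-FLAG antibody, a library with an anti-USF2 antibody and an input without antibody, so that no library comes from cells without the transgenes and each clone is a line of its own. The labels give 42.5 M reads per immunoprecipitation and 55 M per input. The PLAG1-S lists held 37574 peaks in clone 4 and 29889 in clone 5, and the USF2 lists held 9338 and 4369 at a looser q. With 2 clones an exact sign-flip test cannot give a two-sided p below 0.5, so that every value here is a description with no test, given for each clone. The intervals are 95% Wilson intervals and cover counting error only.

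The sequences under the summits can be shown for the peaks that lay at a start inside their host gene. RefSeq lists starts with the 250 bases before and 50 after them (GRCh38.p14), and 125 members had the summit within such a window. Of these, 108 had at least 50 bases before the start within 60 bases of the summit. The stretches below are the 3 of these 108 with the largest clone 4 fold enrichment and the next 2 that held the G-rich core. Each is on the strand of the gene, lies before the start, and reaches up to 60 bases to each side of the summit. Capitals mark the E-box CACGTG and the G-rich core GGGGC followed after 6 to 8 bases by GGG, searched on both strands. This core with its GGG stood in 31 of the 108 stretches, and the last 2 below are shown because they held it.
NBEAL2 (chr3:46987811-46987931, plus strand): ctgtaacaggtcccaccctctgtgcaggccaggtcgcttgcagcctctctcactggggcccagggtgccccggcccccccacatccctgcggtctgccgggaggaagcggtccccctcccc
NPY1R (chr4:163332628-163332748, minus strand): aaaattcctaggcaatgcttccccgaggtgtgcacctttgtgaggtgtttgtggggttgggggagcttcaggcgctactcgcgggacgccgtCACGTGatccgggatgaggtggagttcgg
RGS3 (chr9:113536367-113536487, plus strand): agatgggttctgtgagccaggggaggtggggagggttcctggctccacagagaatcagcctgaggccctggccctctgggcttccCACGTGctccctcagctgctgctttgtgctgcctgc
ANXA4 (chr2:69741943-69742063, plus strand): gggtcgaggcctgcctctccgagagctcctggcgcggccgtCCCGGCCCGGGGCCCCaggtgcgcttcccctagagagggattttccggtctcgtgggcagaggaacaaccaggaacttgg
LDB1 (chr10:102115003-102115067, minus strand): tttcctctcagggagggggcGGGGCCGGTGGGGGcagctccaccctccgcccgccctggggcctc
The NPY1R and RGS3 stretches each held an E-box, although no USF2 peak of either clone was called within 100 bp of these peaks. The nearest USF2 peak was 161723 bp away at NPY1R, the gene of a neuropeptide Y receptor, and 51838 bp away at RGS3, which encodes a regulator of G protein signalling. ANXA4, the gene of a calcium-dependent phospholipid-binding protein, and LDB1, the gene of a cofactor that joins LIM domain proteins and GATA1 complexes in blood cells, had the core without an E-box in the stretch shown.

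Over the whole 300-base windows, 62 of the 125 windows with a member summit held the G-rich core with its GGG, which is 49.6% (41.0% to 58.2%). This share was 47.2% (44.6% to 49.8%) in the 1427 windows with the summit of a PLAG1-S-only narrow peak at a coding gene end, and 24.0% (23.6% to 24.5%) in all 34961 listed windows. An E-box stood in 23 of the 125 windows, or 18.4% (12.6% to 26.1%), against 13.6% (11.9% to 15.5%) and 7.27% (6.998% to 7.54%) in the same order. The windows with a member summit were richer in G and C than the listed windows as a whole, with medians of 69.3% and 58.7%, and the part of base composition in these shares was not tested. The first 5 bases of the core alone stood in 93.6% of the windows with a member summit and in 70.4% of all listed windows, so that they tell windows apart poorly.

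Several of the strongest intragenic peaks had nearly the same value in clone 5. The fold enrichment is the ratio of fragments at the summit to the local background built from the inputs, with a small constant added to both. The largest clone 4 value was in SEPTIN9, which encodes a septin of the cytoskeleton. That peak (chr17:77363880-77364442, hg38) reached 32.01 in clone 4 and 29.3 in clone 5, from 143 and 126 fragments, and it lay 22938 bp from the nearest gene end. In IRS1, the gene of the adaptor that carries signals from the insulin and IGF1 receptors, the peak (chr2:226791517-226792050) reached 25.03 and 24.7, and the summits of the clones were 16 bp apart. The peak in PTGES, which encodes a prostaglandin E synthase, had 23.4 and 24.1. SLC2A1, the gene of the glucose transporter GLUT1, had 21.6 and 20.9. These 4 peaks differed between the clones by less than 1.5-fold.

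Further strong peaks differed more between the clones. In ZMIZ1, the gene of a PIAS-like transcriptional coactivator, the peak reached 23.5 in clone 4 and 14.9 in clone 5. The peak in NFIC, a nuclear factor I gene, had 21.7 and 15.3, that in UQCC1, which serves the assembly of respiratory complex III, had 21.2 and 16.4, and that in GNA11, a G protein alpha subunit gene, had 23.3 and 18.6. MED16, the gene of a Mediator subunit, went the other way with 16.2 in clone 4 and 30.6 in clone 5, the largest clone 5 value of all members, with summits 5 bp apart. STK11, which encodes the kinase LKB1, had 17.9 and 27.4. In ARID3A, a gene of an AT-rich DNA-binding factor, 2 members of 21.0 and 18.9 in clone 4 overlapped 1 clone 5 peak of 23.5, whose summit was 18 bp from the second of them. CTIF, a gene of cap-dependent translation, likewise had 2 members, of 15.7 and 14.0, under 1 clone 5 peak of 27.6.

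**Figure D1:**
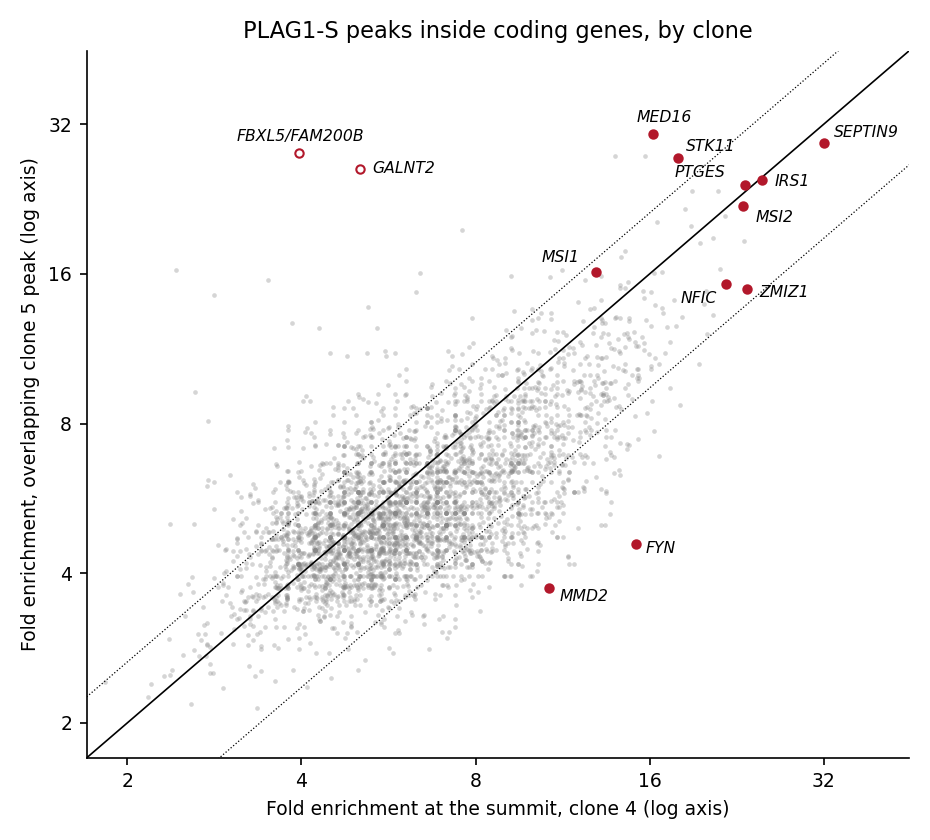
Fold enrichment of each of the 3685 members in clone 4 (x axis) and of the overlapping clone 5 peak (y axis), both on log axes. The solid line marks equal values and the dotted lines a 1.5-fold difference after the median shift of all reproducible peaks; named members are red, filled where the summits of the clones lay within 200 bp and open where they did not, as for FBXL5/FAM200B and GALNT2, whose clone 5 values belong to summits 666 bp and 629 bp away.

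The study set out from the MSI2 promoter, and 1 of the strongest members lay inside that gene. MSI2 encodes Musashi-2, an RNA-binding protein of hematopoietic stem and progenitor cells, and spans 446 kb. Its member (chr17:57379520-57379902) had its summit 123838 bp from the gene start and reached a fold enrichment of 23.2 in clone 4 and 21.9 in clone 5, from 95 and 85 fragments. The summits of the clones were 13 bp apart. The PLAG1-S peak at the start of MSI2, where USF2 was also called, reached 17.9 in clone 4 and 13.4 in clone 5, so that the intragenic peak had the larger value in both clones. The nearest USF2 peak to the intragenic member was 122965 bp away, at the start of the gene. A further 4 PLAG1-S peaks inside MSI2, with folds of 4.27 to 6.52, were called in clone 4 and not in clone 5. MSI1, the gene of the related Musashi-1, also held 1 member (chr12:120361581-120361998), with 12.9 in clone 4 and 16.1 in clone 5.

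**Figure D2:**
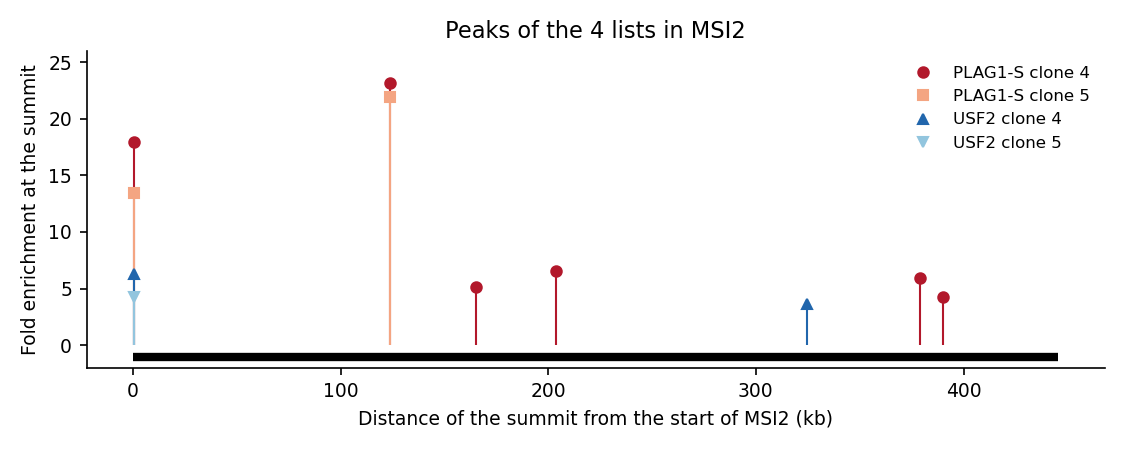
Peaks of the 4 lists inside MSI2, by the distance of the summit from the gene start in kb (x axis) and the fold enrichment at the summit (y axis); the black bar is the gene. PLAG1-S and USF2 symbols of both clones stand together at the start, and the PLAG1-S symbols of both clones stand alone at 124 kb, with 23.2 and 21.9.

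Over all members the fold enrichments were modest and rested on few fragments. The median was 6.01 in clone 4, with quartiles of 4.74 and 7.99 and a range of 1.83 to 32.01. In clone 5 the median was 5.28, with quartiles of 4.44 and 6.66 and a range of 2.15 to 30.6. The median summit held 27 fragments in clone 4 and 22 in clone 5, over a median local background of 3.41 and 3.17 fragments. A −log10 q of at least 10 was reached by 2210 members in clone 4 (59.97%) and by 1214 (32.9%, 31.4% to 34.5%) in both clones. The peaks had a median width of 293 bp in clone 4 and 248 bp in clone 5.

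The selection takes the value of whichever clone 5 peak overlapped, and that peak could have another summit. The summits of the clones lay a median of 30 bp apart, and 2470 members (67.0%, 65.5% to 68.5%) had them within 50 bp. In 186 members (5.05%) they were over 200 bp apart, 94 members met a clone 5 peak of 700 bp or wider, and 105 shared their clone 5 peak with another member. In these cases the ratio between clones compares different summits. The member in FBXL5, an iron-sensing F-box gene that overlaps FAM200B, had 3.97 in clone 4 beside 28.0 in clone 5, from a summit 666 bp away. The member in GALNT2, the gene of an enzyme that starts O-glycans, had 5.04 beside 26.1, and that in EPB41, a membrane skeleton gene of red cells, had 2.43 beside 16.3, with summits 510 bp apart. These 3 had the smallest ratios of clone 4 to clone 5.

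The members were compared with the peaks of the same kind elsewhere, namely the 7017 PLAG1-S-only narrow peaks within 3 kb of a coding gene end and the 2087 that lay between genes. In clone 4 the members had a larger median fold than the peaks at gene ends, 6.01 against 5.27, a difference of 0.19 on the log2 scale. In clone 5 the medians were 5.28 and 5.17, a difference of 0.03. The peaks between genes had 6.44 in clone 4 and 5.28 in clone 5. Without the other clone, so that no overlap was asked, the difference to gene ends was 0.072 in clone 4 and -0.013 in clone 5, where its sign turned. Summits of the clones lay within 50 bp of each other in 51.9% (50.8% to 53.1%) of the peaks at gene ends and in 72.5% (70.6% to 74.4%) of those between genes, so that the members stood between these groups.

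The balance between the clones followed the same order. The median log2 ratio of clone 4 to clone 5 fold was 0.17 among the members, 0.065 at gene ends and 0.27 between genes, against 0.18 over all reproducible PLAG1-S peaks. Among peaks whose summits lay within 50 bp the 3 medians were 0.22, 0.13 and 0.31. With the clone 5 peaks as the starting list they were 0.20, 0.12 and 0.28. After the median of all reproducible peaks was taken off, 640 members (17.4%) differed by more than 1.5-fold between the clones, where 16.7% of all reproducible PLAG1-S peaks did. Of these, 326 were higher in clone 4 (8.85%, where 7.93% of all reproducible peaks were) and 314 in clone 5 (8.52%, where 8.73% were). These shares were near the background. Without the median taken off, 616 members were higher in clone 4 and 143 in clone 5. At gene ends 5.20% were higher in clone 4 and 12.7% in clone 5 after the shift, and between genes 11.0% and 5.56%. The balance at gene ends turned without the shift, to 10.8% and 6.06%, while between genes it was 21.8% and 1.87%. With the shift and summits within 50 bp the shares at gene ends were 5.82% and 7.41%. Among such members 9.72% were higher in clone 4 and 6.32% in clone 5, where 8.84% and 5.03% of all such reproducible peaks were.

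**Figure D3:**
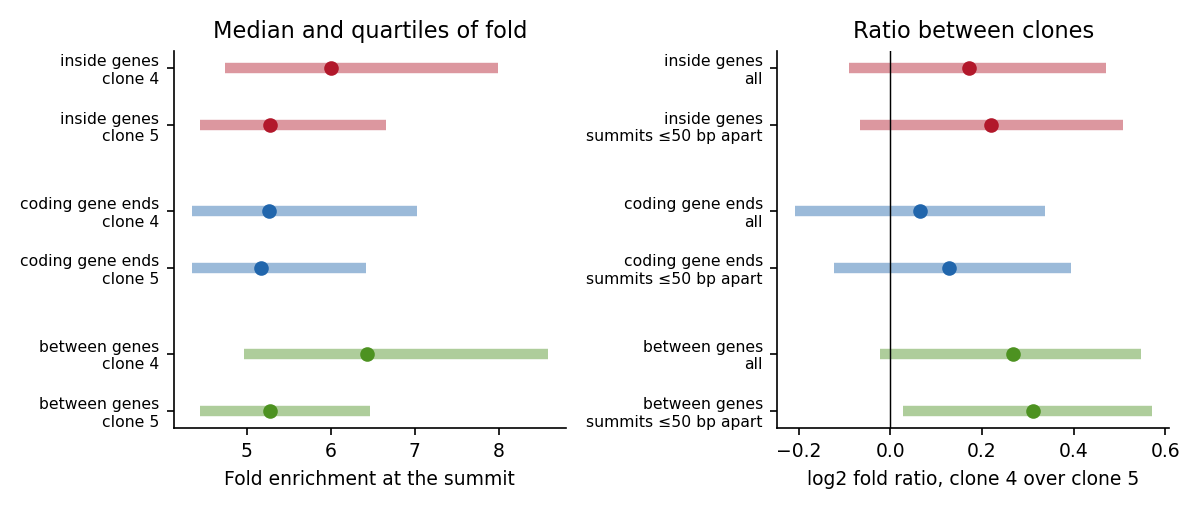
Left, median (point) and quartiles (bar) of the fold enrichment in each clone for the members and for the PLAG1-S-only narrow peaks at coding gene ends and between genes. Right, the same for the log2 ratio of clone 4 to clone 5, over all peaks and over those with summits within 50 bp; the members, at 0.17 and 0.22, lay between the other 2 groups.

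The largest ratios of clone 4 to clone 5 were at 3 members with modest clone 5 peaks. The member in FYN, a Src family kinase gene, had 15.1 in clone 4 and 4.57 in clone 5, a ratio of 3.31. The member in MMD2 had 10.7 and 3.73, and that in GCNT4, a gene of a glycosyltransferase, had 11.9 and 4.17. Their summits were 130, 103 and 74 bp apart.

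How many peaks of this kind a clone shared with the other was counted from the lists before the overlap was asked for. Of 8271 clone 4 peaks that met every other condition, 3685 overlapped a clone 5 peak, or 44.6% (43.5% to 45.6%). At gene ends the share was 61.1% (60.2% to 62.0%) and between genes 40.1% (38.8% to 41.4%). From clone 5 the shares were 63.8% (62.6% to 65.1%), 71.7% and 69.7%. The share depended on the strength of the peak. Of the clone 4 peaks inside genes with a fold of 10 or more, 462 of 472 (97.9%, 96.1% to 98.8%) were met by a clone 5 peak, and at gene ends 98.9% were. Below a fold of 4 the shares were 26.2% (24.1% to 28.4%) inside genes, 42.0% (40.2% to 43.9%) at gene ends and 20.5% (17.9% to 23.3%) between genes. Clone 4 peaks inside genes that were not found in clone 5 had a median fold of 4.61, against 6.01 for those that were. Regions just under the q threshold of a list are not shown by it.

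**Figure D4:**
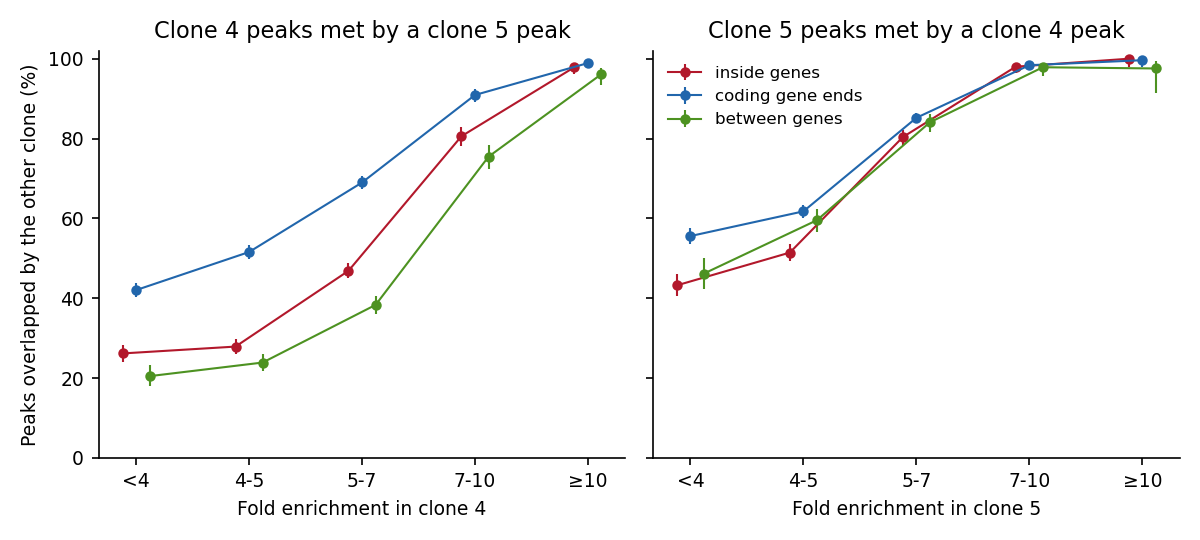
Share of peaks overlapped by a PLAG1-S peak of the other clone (y axis, percent, with 95% Wilson intervals) by fold enrichment (x axis), for clone 4 peaks on the left and clone 5 peaks on the right. Among clone 4 peaks the share inside genes rose from 26.2% below a fold of 4 to 97.9% at 10 or more, and below 10 it lay under the share at gene ends.

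The members fell into 2234 host genes, which is 13.8% of the 16237 protein-coding genes longer than 6 kb, the shortest that could hold such a peak. Of the hosts, 1523 had 1 member, 391 had 2, 308 had 3 to 9 and 12 had 10 or more. The summits of 78 members lay in 2 overlapping coding genes, and such a member counts for both. GSE1, the gene of a coiled-coil protein found in histone deacetylase complexes, held the most with 47 members over 507 kb of chromosome 16. Its members ranged from 3.03 to 12.3 in clone 4 and from 2.67 to 12.8 in clone 5, so that none was among the 10 strongest. Several GSE1 members overlapped the same clone 5 peak as another, so that the 47 members met fewer clone 5 peaks. KCNQ1, the gene of a cardiac potassium channel, held 24 members, from 3.79 to 15.99 in clone 4. PTPRN2, a phosphatase-like protein of secretory vesicles, had 16, MEGF6 had 14, and SLC12A7, a potassium and chloride cotransporter gene, SEPTIN9 and IQSEC1, an ARF exchange factor gene, had 12 each. Per 100 kb, SLC12A7 and MEGF6 held 11.4 and 10.2 members, GSE1 9.28 and PTPRN2 1.53.

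The spacing of the members varied widely. The nearest other member was a median of 31834 bp away, and 390 members (10.6%) had one within 1 kb. Counted over all reproducible PLAG1-S peaks, 1857 members (50.4%) had a neighbour within 10 kb and 344 (9.34%) had none within 100 kb. A USF2 peak of either clone lay within 1 kb of 199 members (5.40%, 4.72% to 6.18%) and within 10 kb of 992 (26.9%), while the median distance to one was 31180 bp. The members farthest from any gene end were in AUTS2, at 431591 bp, with 5.10 in clone 4 and 5.18 in clone 5. Next came a member in ARID1B, a SWI/SNF subunit gene, at 189093 bp, with 5.12 and 4.86, and 1 in PTPRN2 at 188805 bp, with 2.74 and 2.88 over a background of 14.0 and 13.2 fragments.

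Long genes hosted members more often, and short genes held them more densely. The share of hosts was 4.88% (4.33% to 5.50%) among genes of 6 to 20 kb and 30.3% (25.4% to 35.5%) among those over 500 kb. The hosts had a median length of 67.2 kb, against 34.4 kb for all coding genes over 6 kb. Members per Mb of whole gene length were 4.68, 5.56, 4.51, 3.01, 1.89 and 0.958 from the shortest to the longest class. The density also fell with distance from the ends. It was 8.44 per Mb at 3 to 5 kb from the host start, counted over bases more than 3 kb from every gene end, 5.56 at 10 to 20 kb and 1.65 beyond 100 kb. From the other end of the host the values were 7.28, 5.76 and 1.55, so that the start and the far end gave nearly the same decline. Bases far from both ends occur in long genes only. The densities were not split by length and distance together, so that the part of each was not tested.

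**Figure D5:**
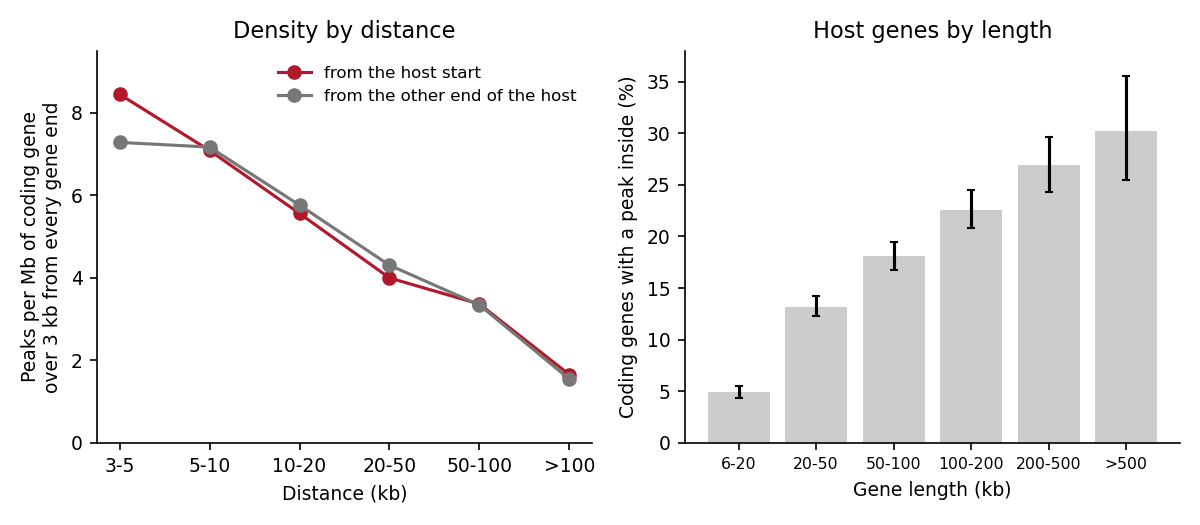
Left, members per Mb of coding gene lying more than 3 kb from every gene end (y axis) by distance from the host start or from its other end (x axis, kb), over the 15811 coding genes with a listed start. Right, share of coding genes that host a member (y axis, percent, 95% Wilson intervals) by gene length (x axis, kb), from 4.88% at 6 to 20 kb to 30.3% over 500 kb.

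The density also varied between the chromosomes. Per Mb of eligible gene body it was 3.47 in all, 13.4 on chromosome 19, 9.72 on chromosome 22, 8.46 on chromosome 16, 7.33 on chromosome 17 and 6.86 on chromosome 21. The lowest densities were 0.958 on chromosome X, 0.965 on chromosome 13 and 1.12 on chromosome 18. The local background, which comes from the inputs, was above 10 fragments at 71 members (1.93%), of which 51 lay on chromosome 22 (chr22:19062275-23271382) and 12 on chromosome 9 (chr9:130930573-131273467). Those on chromosome 22 had a median background of 13.4 fragments, a median clone 4 fold of 3.34 and a median of 47 fragments at the summit. In BCR, the fusion partner of ABL1 in K562 cells, 7 members had clone 4 folds of 1.83 to 4.47 over backgrounds of 16.2 to 24.7 fragments. Without the 71 members chromosome 22 had 6.30 members per Mb. The part of the background in that density was not tested.

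A minority of members lay at a start inside the host gene. The table of starts holds none on chromosome 8, so that 129 members there were not analysed here, and not every coding gene has an entry, so that the counts near a start are lower bounds and the count far from any start is an upper bound. Of the other 3556 members, 271 (7.62%, 6.79% to 8.54%) had the summit within 500 bp of a listed start, which for 268 of them was a start of the host gene itself, and 3079 (86.6%) were more than 3 kb from any. The strongest of these were in NBEAL2, a gene of platelet granule formation, with 14.7 in clone 4 and 15.4 in clone 5, in NPY1R with 14.0 and 13.1, and in PGAP4, a gene of GPI anchor processing, with 13.4 and 9.17. IKZF4, an Ikaros family zinc finger gene, followed with 13.2 and 8.73. RGS3 had 12.6 and 7.57, ANXA4 10.8 and 8.22, and LDB1 10.8 and 7.22.

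The members at inner starts resembled the peaks at gene ends in their values. Their median fold was 5.32 in clone 4 and 5.13 in clone 5, and their median log2 ratio of clone 4 to clone 5 was 0.087. Members more than 3 kb from a listed start had 6.06 and 5.28, and a ratio of 0.19. The summits of the clones lay within 50 bp in 48.7% of the former and in 68.9% of the latter. A USF2 peak lay within 1 kb of 8.12% and 4.81% of them.

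Host genes also carried PLAG1-S at their own outermost start more often than the other coding genes. Of the 1385 hosts with a listed outermost start, 51.2% (48.6% to 53.8%) had a reproducible PLAG1-S peak within 1 kb of it, against 41.8% (40.8% to 42.8%) of 9745 other coding genes over 6 kb. Within classes of length the shares were 60.4% and 40.2% at 6 to 20 kb, 56.0% and 45.8% at 20 to 50 kb, 50.3% and 43.1% at 50 to 200 kb and 39.5% and 27.0% beyond. For reproducible USF2 peaks the shares were 8.16% (6.83% to 9.72%) and 7.48% (6.98% to 8.02%), and these intervals overlap.

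Hosts were then counted in gene lists that fit a leukemia line and the study. In these lists the strongest member is the one with the largest clone 4 fold. Of 38 transcription factor genes of blood cells over 6 kb, 12 (31.6%, 19.1% to 47.5%) held a member, where 13.8% of all coding genes over 6 kb did and 22.6% of those of 100 to 200 kb, and the genes of this list have a median length of 103 kb. FOXP1, a forkhead gene, had 9.48 in clone 4 and 4.17 in clone 5 at its strongest member. ERG, an ETS factor gene of stem cells, had 9.32 and 6.96. ZFPM1, the gene of the GATA1 partner FOG1, held 10 members, of which the strongest had 8.57 and 7.68, and PRDM16, a stem cell zinc finger gene, held 9, of which the strongest had 8.41 and 7.46. The members in TAL1, LMO2, GFI1B and BCL11A, which encode regulators of red cell and stem cell programs, were weaker, with clone 4 folds of 3.36 to 5.98.

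Among 47 chromatin regulator genes, 15 (31.9%, 20.4% to 46.2%) were hosts, against 13.8% of all coding genes over 6 kb. The genes of the list have a median length of 111 kb, and 22.6% of coding genes of 100 to 200 kb were hosts, a share within that interval. KDM4B, a histone demethylase gene with 9 members, had 16.1 in clone 4 and 14.7 in clone 5 at its strongest. KMT2C, a histone methyltransferase gene, had 13.0 and 7.70, and TET3, a gene of 5-methylcytosine oxidation, had 11.2 and 7.07. DNMT3A, a DNA methyltransferase gene, held 4 members, from 4.22 to 8.96 in clone 4. Of 49 kinase, JAK-STAT and RAS pathway genes, 16 (32.7%, 21.2% to 46.6%) were hosts, with a median length of 101.9 kb in the list and the same 13.8% and 22.6% beside it. By clone 4 fold the strongest members were in RPTOR, a subunit of mTORC1, with 14.6 and 7.10, and in PRKCB, a protein kinase C gene, with 11.2 and 5.56. STAT3 had 10.3 and 7.27 and VAV1, a signalling gene of blood cells, had 10.0 and 6.11. The largest clone 5 value of this list was 15.8, in RASA3, at a member with 9.22 in clone 4. These members of RPTOR and PRKCB, like the strongest of FOXP1, were over 1.5-fold higher in clone 4 after the median shift. They were picked by their clone 4 fold, and that choice favours a higher value in clone 4. The RASA3 member and the strongest member of RBFOX3, given below, were over 1.5-fold higher in clone 5.

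Of 21 genes of insulin and IGF signalling and the PLAG family, 4 (19.0%, 7.67% to 40.0%) were hosts. The 13.8% of all coding genes over 6 kb lies within that interval. After IRS1 came INSR, the insulin receptor gene, with 7.11 and 4.72, IGF2R with 4.28 and 4.03 and IGF1 with 4.20 and 4.73. Of 30 RNA-binding and splicing genes, 6 were hosts (interval 9.51% to 37.3%), led by MSI2 and MSI1. The genes of this list have a median length of 113 kb. The 13.8% of all coding genes over 6 kb and the 22.6% of those of 100 to 200 kb both lie within that interval. RBFOX3 had 10.0 and 13.6 at its strongest member and RBFOX1 8.69 and 6.94. Members per Mb were 5.75 for the blood list, 4.61 for chromatin, 5.24 for kinases, 3.06 for insulin and 2.22 for RNA-binding genes, against 2.94 for all coding genes over 6 kb. A few genes held much of these counts. ZFPM1 and PRDM16 had 10 and 9 of the 36 blood members, and KDM4B had 9 of the 32 chromatin members. BCR, with the high backgrounds given above, had 7 of the 36 kinase members, and RBFOX3 had 8 of the 16 RNA-binding members. Densities without these genes were not computed.

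The limits of the selection fell between peaks that differed little in width or distance, while their clone 4 folds varied. At the width limit, the members in NBEAL2 and HNRNPH1 were 699 bp wide, with clone 4 folds of 14.7 and 8.33, and the peaks in ZNF362 and NACA, at 700 bp, were left out with 5.89 and 8.08. At the distance limit, the members in LSM12 and C4B lay 3004 and 3005 bp from a gene end, with 7.02 and 5.45, and the peaks in STRA6/CCDC33 and CBX6 lay 2997 and 2996 bp from one, with 7.11 and 14.3. C4B has a near-identical copy beside it, so that the reads of its peak may not be its own. At the USF2 limit, the members in PLCH2 and NEK8 lay 101 and 105 bp from a USF2 peak, with 3.95 and 5.12, and the peaks in SSBP4 and EPHA10 lay 100 and 91 bp from one, with 10.8 and 6.61. The 3 limits alone left out 129, 5328 and 699 peaks in this order.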

How the data were processed

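Peaks were compared in 2 K562 clones (PLAG1-S and USF2, 1 library each per clone). Per the labels the authors' tools included cutadapt, HISAT2 2.0.4, SAMtools, MACS2 and bedtools on hg38, and they called peaks per library against merged inputs, which all 4 lists share. The fold is the authors' ratio of fragments at the summit to the local background, with 1 added to each. The −log10 p and −log10 q deposited are those of MACS2, and the deposited score is 10 times the −log10 q. Fragments and background were recovered from fold and −log10 p (tolerance 0.001; at least 99.9% of peaks), a step tested on simulated data. Genes and starts came from RefSeq (GRCh38.p14). Members and gene lists were chosen with earlier results of these data known. Named are the hosts of the largest folds, of the most members and of the largest and smallest ratios. Also named are the hosts of the farthest members, up to 4 per list by clone 4 fold, and those beside each limit. The list hosts in TAL1, LMO2, GFI1B, BCL11A, DNMT3A, BCR and RASA3, and the genes with listed starts, were named after their values were seen. Exons and motifs over all members were not analysed here, and some listed genes are not reported here. Python 3.11.15, pandas 2.3.3, scipy 1.17.1 and statsmodels 0.14.6 were used.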

Additional observations from a re-analysis of the deposited data

How the results depend on the processing

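No paired analysis was possible because no result comes from a test, although the clone pairs the libraries. Of 122 values under 17 alternatives, 104 stayed within 1.5 times the count, within the interval of the share or within 1 SD between the clones, and no result had a called direction to turn. A −log10 q of at least 10 in each clone left 1214 members in 951 genes, with median folds of 8.64 and 7.30 and 82.2% of summits within 50 bp. A distance over 10 kb left 2020 members in 1218 genes. A 50% reciprocal overlap gave 73.3% of summits within 50 bp and 15.98% of members past 1.5-fold between clones. That share was 19.3% with recovered fragments over background, 2.58% at 2-fold and 20.6% without centring. Summits within 50 bp, an alternative chosen after seeing the data like the removal of high backgrounds, gave a median clone 4 fold of 6.59. With 1 clone alone and no overlap asked, the members numbered 6438 (clone 5) and 8337 (clone 4). The hosts then ranged from 3015 to 3917, and in clone 4 the median was 5.01 and the log2 difference to gene ends 0.072, while in clone 5 that difference turned from 0.03 to -0.013. The 3 motif alternatives over all members were not run, for lack of a genome sequence. Peaks under the q threshold cannot be seen at this depth.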
